A study of Danio rerio with 2 samples.

Results

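Claudins are membrane proteins that join neighbouring epithelial or endothelial cells at tight junctions. Each protein crosses the membrane several times and meets a claudin of the next cell, and the set of claudins in a layer sets which ions and water pass between its cells. In the zebrafish embryo the epidermis has an outer periderm that faces the water and a basal layer that lies on the basement membrane, and the family holds both genes named after mammalian claudins and genes named by letters.

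The claudin genes described here were those with a symbol starting in cldn, with the cldnd symbols left out, that had at least 10 UMIs (unique molecular identifiers, 1 per captured transcript) over both libraries. This held for 29 of the 31 symbols and of 25432 genes in all. Just inside the limit were cldn2 with 16 UMIs and cldnj with 14 UMIs, and just outside it was cldn10l2 with 7 UMIs, while cldn18 had 0. The symbol cldnd, which falls under the exclusion, had 9 UMIs. Of the 29 members, 17 had at least 200 UMIs and 12 had fewer.

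The cells came from 36 hpf (hours post fertilization) zebrafish embryos and were sorted for GFP. Embryos of the mgat4b mutant group carried a plasmid that expressed Cas9 and GFP from the mitfa promoter together with guides against mgat4b, which encodes a glycosyl transferase, and embryos of the control group carried the same kind of plasmid with a nontargeting guide. The promoter belongs to a gene of pigment cells and their precursors, the mutation was somatic, and the number of embryos pooled per library was not given in the sources used here. Each group was 1 library made with 10x Genomics 3′ chemistry, so no test between the groups was possible, and each interval below covers counting error only. The mutant library had 3860 passing cells with a median of 6480 UMIs, and the control library had 1771 passing cells with a median of 4919 UMIs. Cells under 1000 UMIs made up 9.22% of the mutant library and 30.2% of the control library, and the libraries shared 2 cell barcodes.

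The targeted gene mgat4b was at 64.3 CPM (UMIs scaled to a total of 1000000, with a 95% interval of 61.5 to 67.2) in mutant cells and 80.8 CPM (76.6 to 85.1) in control cells. Although the labels call the cells melanocytes, mitfa had a UMI in 570 of the 3860 mutant cells and in 112 of the 1771 control cells. Cells were therefore assigned to classes by marker genes, none of them a claudin. A cell entered a class when at least 3 of its markers were raised and it led every other class by at least 2 markers. Only cells of at least 1000 UMIs could enter a class, which left out 356 mutant and 535 control cells by depth alone. The gate placed 70.4% of all passing mutant cells and 49.0% of all passing control cells, so these shares also depend on depth. Of 23 classes with markers, 22 had cells in both libraries, 13 had 10 cells or more in each and 5 had 50 cells or more. The median depth of the cells left without a class was 3777 UMIs in the mutant and 844 UMIs in the control. The melanophore class held 20 mutant cells and 4 control cells. Epidermal classes were larger, with 282 mutant and 98 control periderm cells and 240 mutant and 101 control basal cells.

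The claudin UMIs were concentrated in the epidermis. The 29 members together gave 1550 CPM in mutant cells and 1614 CPM in control cells over all passing cells. Periderm cells, which had 9.18% of all mutant UMIs and 11.5% of all control UMIs, held 40.4% of the mutant claudin UMIs and 40.5% of the control claudin UMIs. Basal cells added 24.9% in the mutant and 24.996% in the control. The summed level was 6823 CPM in mutant periderm and 5701 CPM in control periderm, and 5979 CPM in mutant basal cells and 4430 CPM in control basal cells. Outside the epidermis the pronephros, the embryonic kidney, reached 3354 CPM in 11 mutant cells and 3356 CPM in 5 control cells. Otic cells of the inner ear reached 1880 CPM in 18 mutant cells and 1849 CPM in 8 control cells. Ionocytes, the ion-transporting cells of the skin, reached 5429 CPM in 4 mutant cells and 4937 CPM in 2 control cells. Skeletal muscle was among the lowest, with 124 CPM in 78 mutant cells and 49.3 CPM in 17 control cells.

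**Figure D1:**
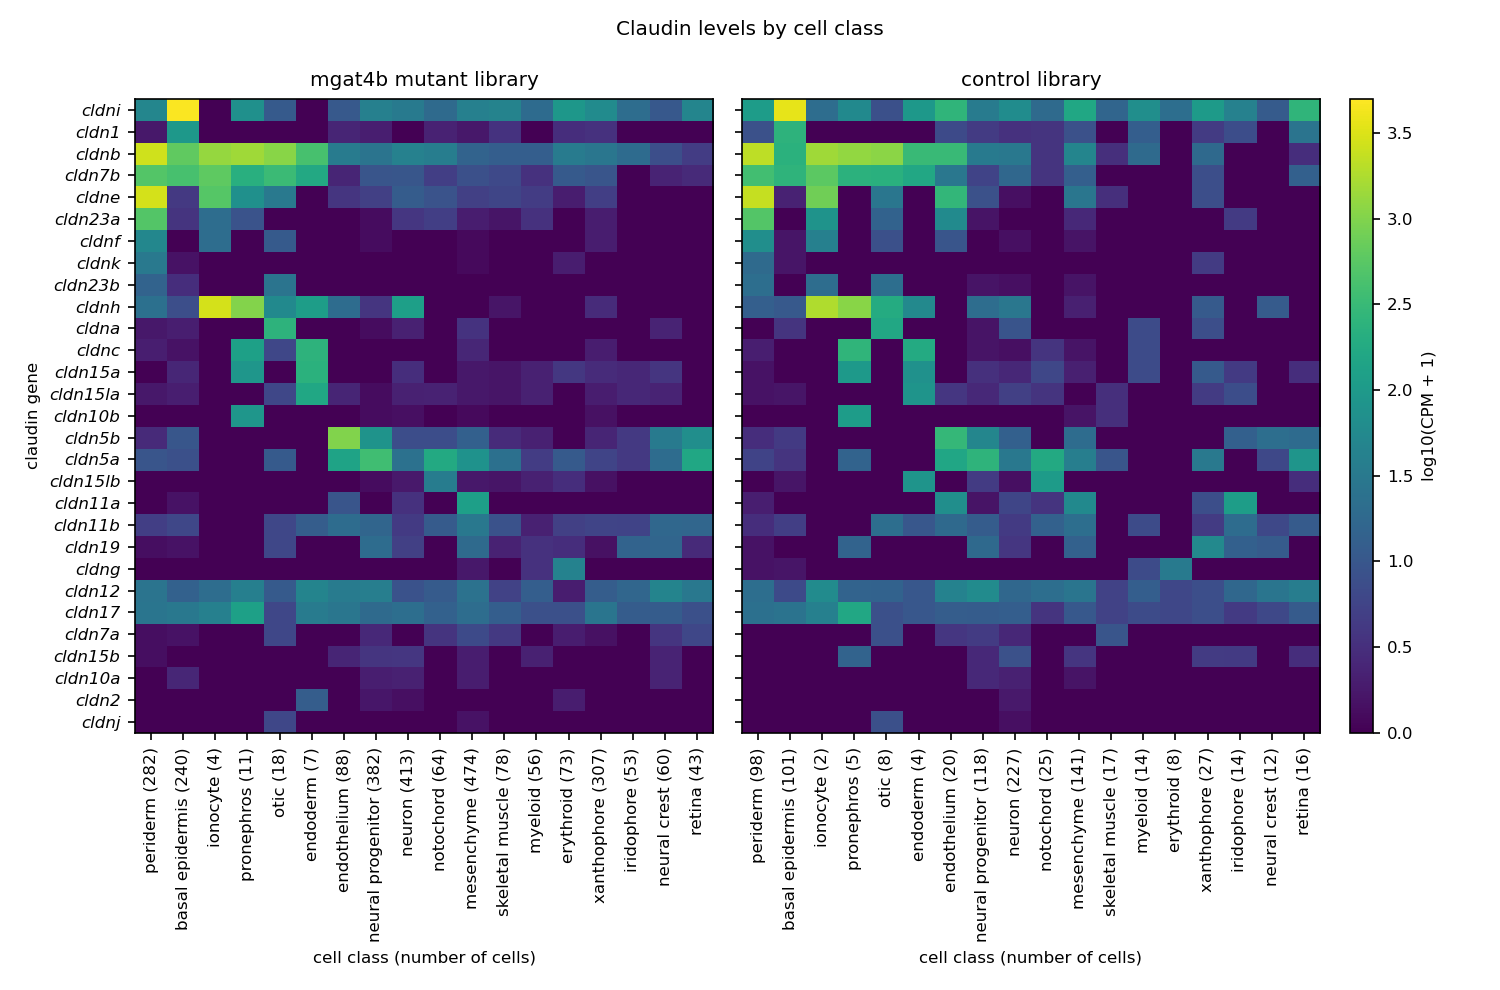
Heat maps of the level of each of the 29 claudin genes (rows, log10 of CPM + 1) in 18 cell classes (columns, with their cell numbers), in the mgat4b mutant library on the left and the control library on the right. The brightest cell of both maps is cldni in basal epidermis, at 4750 CPM in the mutant and 3646 CPM in the control, while cldn12 and cldn17 form even bands across the classes.

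A member was called class-restricted when its level in 1 class was at least 4 times that in all other classified cells, in each library on its own. Over the 13 classes of 10 cells or more, 20 members had the 50 UMIs needed, and 13 of the 20 were restricted. Over all 17056 genes that could be called, 38.8% were restricted by this rule. To periderm or basal cells were restricted 9 of the 20 members, against 7.81% of all genes. The 7 members restricted to periderm (4.44% of all genes) were cldnb, cldne, cldn7b, cldn23a, cldnf, cldnk and cldn23b. The 2 restricted to basal cells (3.37% of all genes) were cldni and cldn1. The remaining 4 were cldn5a in neural progenitors, cldn5b in endothelium, cldn11a in mesenchyme and cldn15lb in notochord. The rule compares a class with all other classified cells pooled. In the control library cldn11a was higher in iridophores (115 CPM) and endothelium (65.7 CPM) than in mesenchyme. Among the 20 members the highest class differed between the libraries for cldn7a, cldn11a, cldn12 and cldn19. How often it differed over all genes was not computed. The 9 members that were not called had too few UMIs in these classes.

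Of the basal claudins, cldni was the most abundant member of the family. Its level in basal cells was 4750 CPM (4654 to 4848) in the mutant and 3646 CPM (3552 to 3742) in the control, and it made up 79.4% of the claudin UMIs of mutant basal cells and 82.3% of those of control basal cells. Single basal cells spanned a median of 4656 CPM in the mutant (quartiles 3132 and 6495) and a median of 3312 CPM in the control (quartiles 2597 and 4654). A UMI of cldni was found in 239 of the 240 mutant basal cells and in 100 of the 101 control basal cells, so it was close to a feature of every cell of the class. With each cell thinned to 1000 UMIs the share was 95.4% (91.9 to 97.7) in the mutant and 92.1% (85.0 to 96.5) in the control. The same thinned share in neurons, which should lack it, was 4.60% in the mutant and 8.81% in the control, so cldni UMIs were present at a low level outside the epidermis in both libraries. Median depth was 6464 UMIs in mutant and 12077 in control basal cells, and 5281 in mutant and 7054 in control neurons.

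The other basal member, cldn1, is the counterpart of a mammalian claudin needed for the skin barrier. It was far less abundant than cldni, at 93.7 CPM (80.6 to 108) in mutant basal cells and 244 CPM (220 to 270) in control basal cells. Correlations were taken over the cells of 13 classes in both libraries, among members with at least 200 UMIs. There the level of cldn1 followed that of cldni most closely, with a Pearson correlation of 0.92 on the log2(CPM + 5) scale. The 26 points of that correlation share libraries and depth, and it is given as a description only.

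In periderm, cldne and cldnb were present at similar levels. The level of cldne was 2887 CPM (2824 to 2951) in the mutant and 2397 CPM (2329 to 2467) in the control, and that of cldnb was 2675 CPM (2614 to 2736) in the mutant and 2115 CPM (2051 to 2180) in the control. Since each UMI marks 1 transcript end, gene length does not enter these values. Of the periderm claudin UMIs cldne made up 42.3% in the mutant and 42.1% in the control, and cldnb made up 39.2% in the mutant and 37.1% in the control. All 282 mutant and all 98 control periderm cells had a cldnb UMI, and 280 mutant and 97 control cells had a cldne UMI.

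These genes differed in how far they reached beyond the periderm. In basal cells cldne had 6 UMIs in the mutant and 2 UMIs in the control, while cldnb had 1236 UMIs in the mutant and 361 UMIs in the control. In otic cells cldnb stood at 1112 CPM (970 to 1269) in the mutant and 1145 CPM (978 to 1333) in the control, while cldne stood at 30.3 CPM in the mutant and 27.6 CPM in the control. In the pronephros cldnb was at 1494 CPM in the mutant and 1276 CPM in the control, although 25% of those mutant UMIs and 60.9% of those control UMIs lay in 1 cell. Reporter fish made with the cldnb promoter are in common use to see the lateral line and other epithelia, and the present levels likewise covered several epithelial classes. The thinned share of otic cells with a cldnb UMI was 66.7% (41.0 to 86.7) in the mutant and 62.5% in the control, and in neurons it was 1.94% in the mutant and 2.64% in the control.

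The next periderm members were cldn23a and cldn7b. The level of cldn23a in periderm was 515 CPM (489 to 543) in the mutant and 515 CPM (483 to 547) in the control, and periderm held 95.9% of its mutant UMIs and 95.6% of its control UMIs. By contrast, cldn7b was spread over both layers, with 507 CPM in mutant and 382 CPM in control periderm and 421 CPM in mutant and 251 CPM in control basal cells. Mammalian CLDN7 is found in many epithelia. In otic cells cldn7b reached 334 CPM in the mutant and 221 CPM in the control, which was below cldnb in both libraries, as in periderm, while in control basal cells cldn7b was close to the 232 CPM of cldnb. The correlation of the pair over the 26 points was 0.90.

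A further set was low and mostly in periderm. This set was cldnf with 143 of 161 mutant UMIs and 132 of 148 control UMIs, cldnk with 86 of 100 mutant UMIs and 35 of 43 control UMIs, and cldn23b with 39 of 57 mutant UMIs and 40 of 53 control UMIs. In zebrafish cldnk is best known from myelinating glia, a cell type for which no markers were used here. Among the 17 members with at least 200 UMIs, the highest correlation of a pair over the 26 points was that of cldn23a with cldnf, at 0.98.

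**Figure D2:**
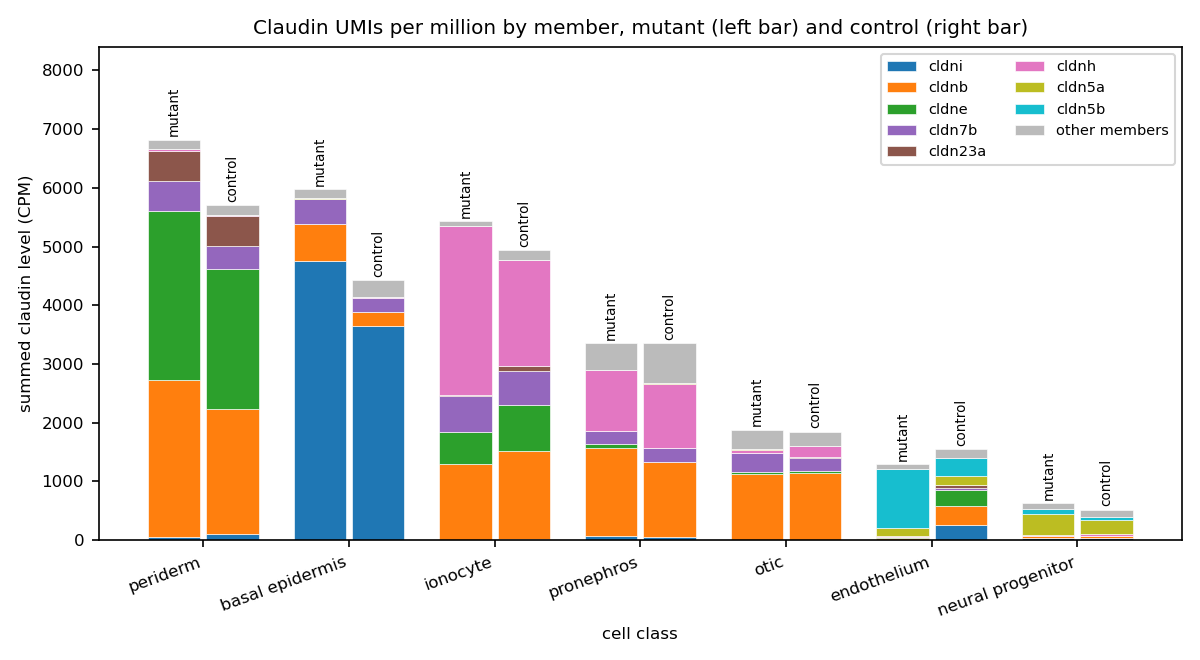
Stacked bars of the summed claudin level (CPM) in 7 cell classes, split by member, with the mutant library as the left bar and the control library as the right bar of each pair. Periderm is built mainly of cldne and cldnb, basal epidermis of cldni, and ionocytes and pronephros of cldnh and cldnb; the control endothelium bar also holds cldne and cldnb, with 98.0% of those cldne UMIs and 93.7% of those cldnb UMIs in 1 cell.

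The layers of the epidermis could be told apart by cldni and cldne in most single cells with enough UMIs of the pair. Among cells with at least 10 UMIs of both genes together, whatever their class, 312 of 540 mutant cells had at least 90% of these UMIs from cldni, 213 had at least 90% from cldne, and 15 lay between. In the control library the numbers were 132, 93 and 3 of 228 cells. All 214 such basal cells of the mutant and all 87 of the control were on the cldni side, while 207 of 218 mutant periderm cells and 88 of 91 control periderm cells were on the cldne side. The gate that named the classes used neither gene. In all, the periderm class had 282 mutant and 98 control cells and the basal class 240 mutant and 101 control cells. Those with fewer than 10 UMIs of the pair were not scored. Of the 1142 mutant and 904 control cells without a class, only 93 and 36 had 10 such UMIs. Among these, 85 of 93 in the mutant and 34 of 36 in the control were on the cldni side.

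**Figure D3:**
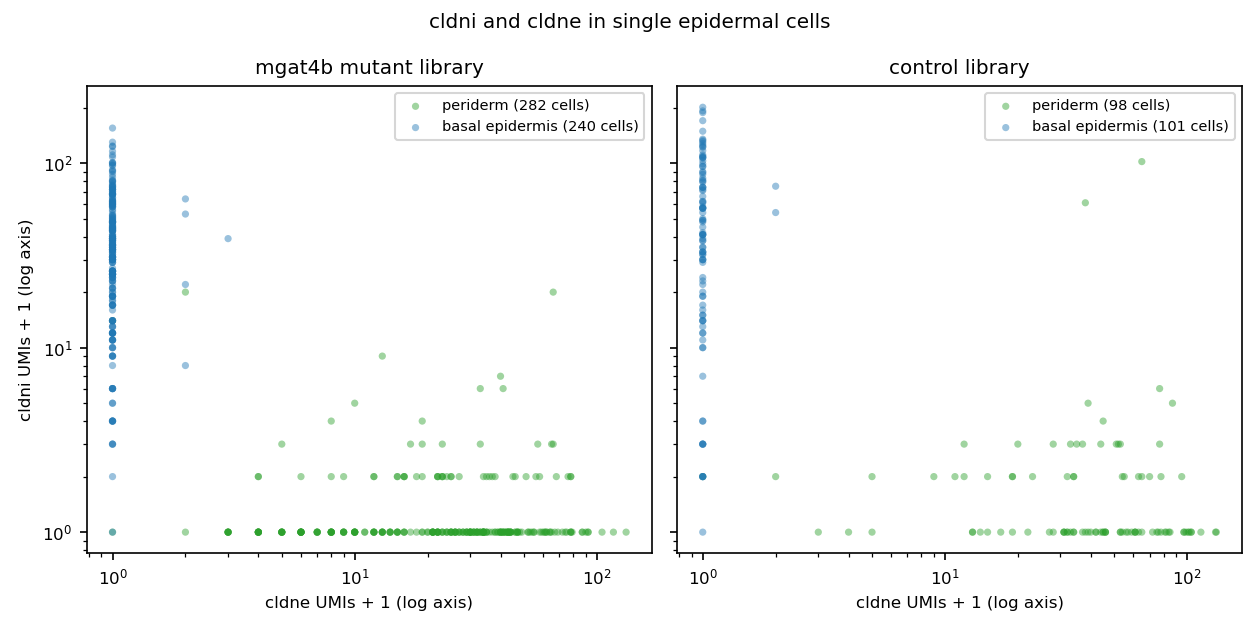
Scatter plots of cldni against cldne UMIs in each periderm cell (green) and each basal epidermal cell (blue), both axes log scaled after adding 1, with the mutant library on the left and the control library on the right. Basal cells lie along the cldni axis and most periderm cells along the cldne axis. Among periderm cells with at least 10 UMIs of both genes together, 9 mutant and 3 control cells lie between the 90% limits. A further 2 such mutant periderm cells lie on the cldni side.

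Thinned to 1000 UMIs, a periderm cell had UMIs of 2.80 members on average in the mutant and 2.69 in the control, and a basal cell had 1.83 in the mutant and 1.49 in the control. Neurons had 0.15 in the mutant and 0.25 in the control. The numbers of cells too shallow to be thinned and so left out were 356 in the mutant and 535 in the control.

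Genes outside the family were ranked by their likeness to the 4 most abundant members over the same 26 points, among 13554 genes. The nearest to cldni were si:dkey-102c8.3, mmp30, which encodes a matrix metallopeptidase, and si:rp71-77l1.1, with correlations of 0.95, 0.94 and 0.94. Nearest to cldnb were spint2, an inhibitor of membrane-bound serine proteases, ppl and arrdc1a, all at 0.93 to 0.94. The gene ppl, which encodes periplakin, was also among the markers of the periderm gate. The nearest to cldne were zgc:153665 and si:cabz01007794.1, both at 0.98, followed by a clone-named gene at the same value. Near to cldn7b were lsr (0.98), which encodes a protein of tricellular junctions, and f2rl1.2 (0.97), a protease-activated receptor.

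Ionocytes, pronephros, otic vesicle and endoderm had their own members, though from few cells, and here the values describe single cells more than classes. The highest level of cldnh was in ionocytes, at 2882 CPM (2434 to 3389) in 4 mutant cells and 1812 CPM (1459 to 2224) in 2 control cells. In the pronephros it was at 1035 CPM in the mutant and 1096 CPM in the control. The gene cldna had 49 UMIs in mutant otic cells and 24 in control otic cells, or 248 CPM (183 to 327) in the mutant and 166 CPM (106 to 246) in the control. A further 122 of its 190 mutant UMIs and 34 of its 88 control UMIs lay in cells without a class.

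The UMIs of cldnc in a class lay mainly in endoderm (22 in the mutant and 20 in the control) and pronephros (16 in the mutant and 19 in the control), out of 151 mutant and 71 control UMIs. Endoderm was also the first class of cldn15a, with 20 of 91 mutant UMIs and 8 of 39 control UMIs, and held 14 of 80 mutant and 9 of 46 control UMIs of cldn15la. The zebrafish cldn15 genes are known from the gut, where a cldn15 protein is needed for a single lumen to form. In the control library neurons held another 10 UMIs of cldn15la. Unclassified cells held 95 mutant and 25 control UMIs of cldnc, 36 mutant and 4 control UMIs of cldn15a, and 46 mutant and 16 control UMIs of cldn15la. For cldn10b, pronephros held 11 of 19 mutant UMIs and 8 of 19 control UMIs.

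The cldn5 pair had its highest levels in neural progenitors and endothelium. Mammalian CLDN5 is the leading claudin of the blood-brain barrier endothelium. The level of cldn5b in endothelium was 997 CPM (925 to 1073) in 88 mutant cells and 294 CPM (240 to 357) in 20 control cells, and in neural progenitors it was 79.0 CPM in the mutant and 48.8 CPM in the control. For cldn5a the order of the classes was the opposite, with 370 CPM (348 to 392.5) in mutant and 251 CPM (228 to 276) in control neural progenitors and 140 CPM in mutant and 151 CPM in control endothelium. Notochord also had cldn5a, at 176 CPM in the mutant and 173 CPM in the control. In neurons it stood at 22.9 CPM in the mutant and 29.1 CPM in the control, far below the progenitors in both libraries.

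Mesenchyme held 490 of the 668 mutant UMIs and 101 of the 308 control UMIs of cldn11a, whose mammalian counterpart is a claudin of myelin and of the testis. These UMIs came from few cells, 61 of 474 in the mutant and 16 of 141 in the control. Control iridophores had a level of 115 CPM of cldn11a, but all 36 UMIs were in 1 cell, and mutant iridophores had 0. Control endothelium, with 23 UMIs of cldn11a, stood at 65.7 CPM, also above control mesenchyme, while mutant endothelium stood at 8.32 CPM. Notochord held 27 of the 49 mutant UMIs and 41 of the 66 control UMIs of cldn15lb. Neither cldn12 nor cldn17 was called restricted, although their levels differed between classes. The levels of cldn12 ran from 4.33 to 46.3 CPM in the mutant and from 4.28 to 59.5 CPM in the control. Those of cldn17 ran from 6.97 to 29.0 CPM in the mutant and from 2.59 to 24.4 CPM in the control. For cldn12 the median over the 13 classes was 15.5 CPM in the mutant and 20.4 CPM in the control, and for cldn17 it was 18.0 CPM in the mutant and 9.35 CPM in the control. The remaining members with at least 200 UMIs were cldn11b, highest in mesenchyme at 29.7 CPM in the mutant and 20.9 CPM in the control, and cldn19, with 72 mutant and 24 control UMIs in mesenchyme and 56 mutant and 31 control UMIs in neural progenitors.

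Among the scarce members, cldng was found mainly in erythroid cells, with 43 of 51 mutant UMIs and 6 of 10 control UMIs. The UMIs of cldn7a, cldn15b, cldn10a, cldn2 and cldnj, which had between 14 and 95 UMIs each, were scattered over several classes, and cldn7a had the most of them, with 23 of 64 mutant UMIs in mesenchyme and 6 of 27 control UMIs in neural progenitors.

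Gene order, taken from RefSeq's annotation of the GRCz12tu assembly and used only for names and neighbours, matched 28 of the 29 members and showed 2 runs of adjacent matched members. The member left unmatched was cldn23b, and the gene after cldn23a was named cldn23.2 there, so a further run of these genes could not be judged. In the run cldnj, cldne, cldnf, cldna the middle genes were both restricted to periderm, while the UMIs of cldna that fell in a class were most often otic, and cldnj had 9 mutant and 5 control UMIs. In the other run, cldnh, cldnc and cldnb, the leading classes were likewise different.

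Between the libraries most members were close when all passing cells were summed. A member was counted as higher or lower when it had at least 50 UMIs, its CPM ratio of mutant over control was at least 2 in either direction, and the interval of that ratio excluded 1. Of the 25 members with enough UMIs, 2 were higher and 3 were lower in the mutant. Over all 18119 genes that could be called, 10.1% met this rule, 4.09% higher and 5.98% lower, so the 5 of 25 members stood against about 1 in 10 genes. With TMM scaling the same members were called, but every log2 ratio was 0.15 higher, and of the calls over all genes 57.6% were higher in the mutant, against 40.6% with total UMIs. The median log2 ratio was 0.08 over the members and -0.15 over all genes.

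The members that met the rule were of low or moderate level. The level of cldn5b was 44.6 CPM (42.2 to 47.0) in mutant cells and 19.9 CPM (17.8 to 22.1) in control cells, a ratio of 2.24 (1.99 to 2.53). That of cldng was 1.68 CPM in mutant cells and 0.585 CPM in control cells, a ratio of 2.86 (1.44 to 6.32). Endothelium, which held 53.0% of the mutant and 30.3% of the control cldn5b UMIs, had 2.37% of all mutant UMIs and 2.05% of all control UMIs. Erythroid cells, which held 84.3% of the mutant and 60% of the control cldng UMIs, had 3.26% of all mutant UMIs and 1.13% of all control UMIs. The lowest ratio was that of cldn1, at 9.72 CPM (8.65 to 10.9) in mutant cells and 37.0 CPM (34.2 to 40.04) in control cells, or 0.262 (0.228 to 0.302). The ratio was 0.417 (0.282 to 0.612) for cldn15lb and 0.431 (0.265 to 0.694) for cldn15b. The number of cells of each type per embryo and the level per cell are mixed in these sums and cannot be told apart in them.

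The abundant epidermal members differed less. The ratio was 0.848 (0.826 to 0.871) for cldni, 1.06 (1.03 to 1.09) for cldnb, 0.944 (0.912 to 0.978) for cldne, 1.08 (1.01 to 1.14) for cldn7b and 0.80 (0.739 to 0.866) for cldn23a, and those of cldne and cldn23a changed direction when taken as means of per-cell CPM, that of cldne also with TMM scaling. Over the same cells the epidermal keratin genes krt4 and krtt1c19e had ratios of 0.603 and 0.583. Of the other members with at least 200 UMIs, cldn5a (1.24, 1.15 to 1.33), cldn17 (1.36, 1.18 to 1.58), cldn11a (1.22, 1.06 to 1.40) and cldn11b (1.29, 1.07 to 1.58) had intervals above 1. The intervals of cldn12 (0.861, 0.760 to 0.977, but 1.14 as a mean of per-cell CPM) and cldnf (0.611, 0.485 to 0.768) lay below 1, and those of cldnh (0.993), cldn19 (0.868), cldna (1.21) and cldnc (1.19) included 1.

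**Figure D4:**
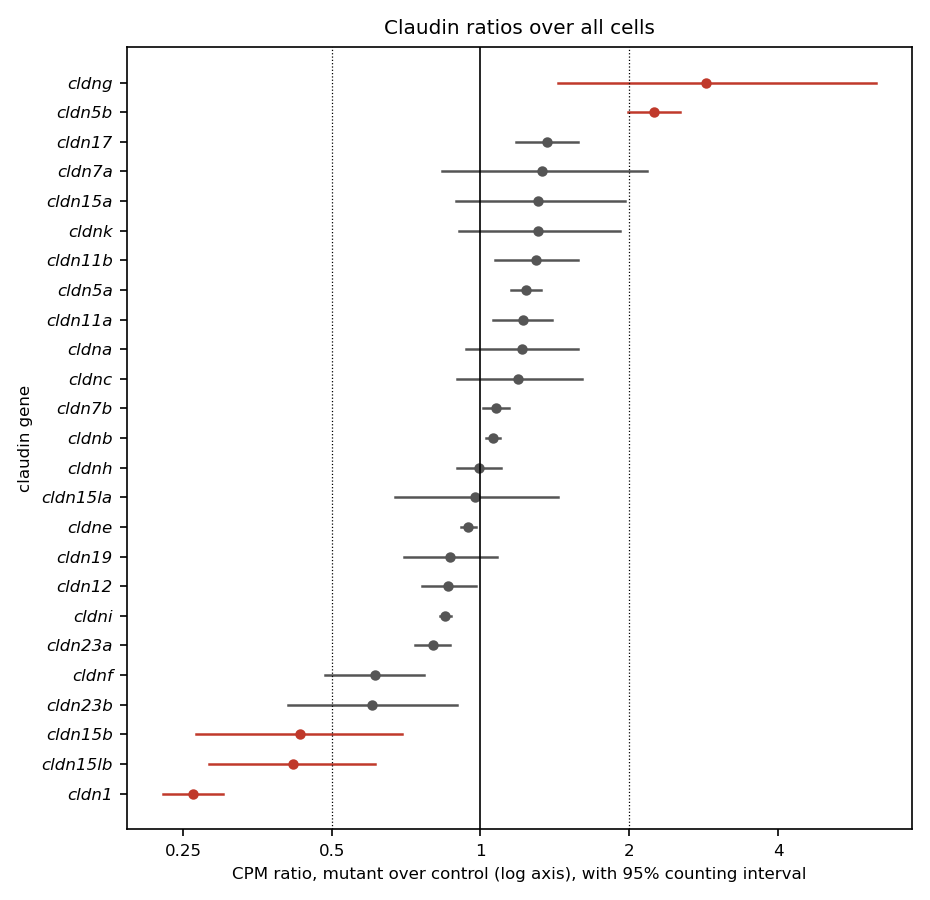
Ratio of mutant over control CPM (log axis) over all passing cells for the 25 claudin genes with at least 50 UMIs, with 95% counting intervals; dotted lines mark ratios of 0.5 and 2, and red marks members past the size rule. The red points are cldng and cldn5b at the top and cldn15b, cldn15lb and cldn1 at the bottom, and the abundant genes cldni, cldnb and cldne lie between 0.848 and 1.06.

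Within classes, the same rule was applied to the 5 classes of 50 cells or more, giving 42 pairs of a member and a class. Of these, 5 were higher and 6 were lower in the mutant. In periderm 0 of 11 members were higher and 1 was lower, where 7.36% of all genes met the rule, 3.93% higher and 3.43% lower. In basal cells 1 of 5 members was higher and 1 lower (5.59% of all genes, 2.58% higher and 3.01% lower). In neural progenitors 0 of 8 were higher and 0 lower (11.5% of all genes, 3.44% higher and 8.08% lower). In neurons 1 of 7 was higher and 1 lower (7.22% of all genes, 3.06% higher and 4.16% lower). In mesenchyme 3 of 11 were higher and 3 lower (6.07% of all genes, 2.58% higher and 3.48% lower). The gate took each marker relative to its own library, so the level needed to enter a class differed between the libraries. Basal markers stood at 10913 CPM in mutant and 13481 CPM in control basal cells. The part of this in the ratios within classes was not tested.

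In basal cells cldnb was higher in the mutant. Its level was 629 CPM (595 to 665) in mutant and 232 CPM (209 to 257) in control basal cells, a ratio of 2.71 (2.41 to 3.06). Single cells ranged up to 4418 CPM around a median of 431 CPM in the mutant and up to 4983 CPM around a median of 51.3 CPM in the control, and a large part of the cells of the libraries overlapped. The thinned share of basal cells with a cldnb UMI was 38.8% (32.6 to 45.2) in the mutant and 17.8% (10.9 to 26.7) in the control. Leaving out the cell with most cldnb UMIs in each library gave a ratio of 3.19 (2.80 to 3.63).

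Periderm markers in the same basal cells stood at 49961 CPM in the mutant and 64191 CPM in the control, and all 14 had a UMI in both libraries. The periderm gene cldne had 6 mutant and 2 control UMIs in them. The part of periderm transcripts in the cldnb difference was not tested. The neighbouring value of cldn7b, 421 CPM in mutant and 251 CPM in control basal cells, gave a ratio of 1.68 (1.48 to 1.89) and did not reach the limit of 2.

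The other basal member that met the rule was cldn1, with a ratio of 0.383 (0.320 to 0.458) within basal cells. A cldn1 UMI was seen in 105 of 240 mutant and 71 of 101 control basal cells, at median depths of 6464 UMIs in the mutant and 12077 UMIs in the control. After thinning to 1000 UMIs the shares were 10.8% (7.2 to 15.5) in the mutant and 13.9% (7.79 to 22.2) in the control, and after thinning to 3000 UMIs they were 27.7% (21.7 to 34.4) in the mutant and 43.2% (32.7 to 54.2) in the control. The gap at 1000 UMIs was within the counting intervals, and at 3000 UMIs the intervals met only at their ends. The ratio was 0.384 without the cell with most cldn1 UMIs in each library. In unclassified cells cldn1 was at 14.2 CPM (11.4 to 17.4) in the mutant and 46.1 CPM (39.8 to 53.1) in the control. The median depth of these cells was 3777 UMIs in the mutant and 844 UMIs in the control. They had 6416150 UMIs in the mutant and 4164182 in the control. Of these, krtt1c19e, a marker of the basal gate, had 3113 in the mutant and 6627 in the control, and cldni had 3666 in the mutant and 2474 in the control. The UMIs of krtt1c19e were not confined to basal cells. In the mutant krtt1c19e had 16921 of 2795623 UMIs in periderm and 11115 of 1964579 in basal cells. In the control it had 10113 of 1958841 UMIs in periderm and 12407 of 1555909 in basal cells. The ratio of cldni, the main claudin of the basal layer, was 1.3 (1.26 to 1.35) in basal cells.

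**Figure D5:**
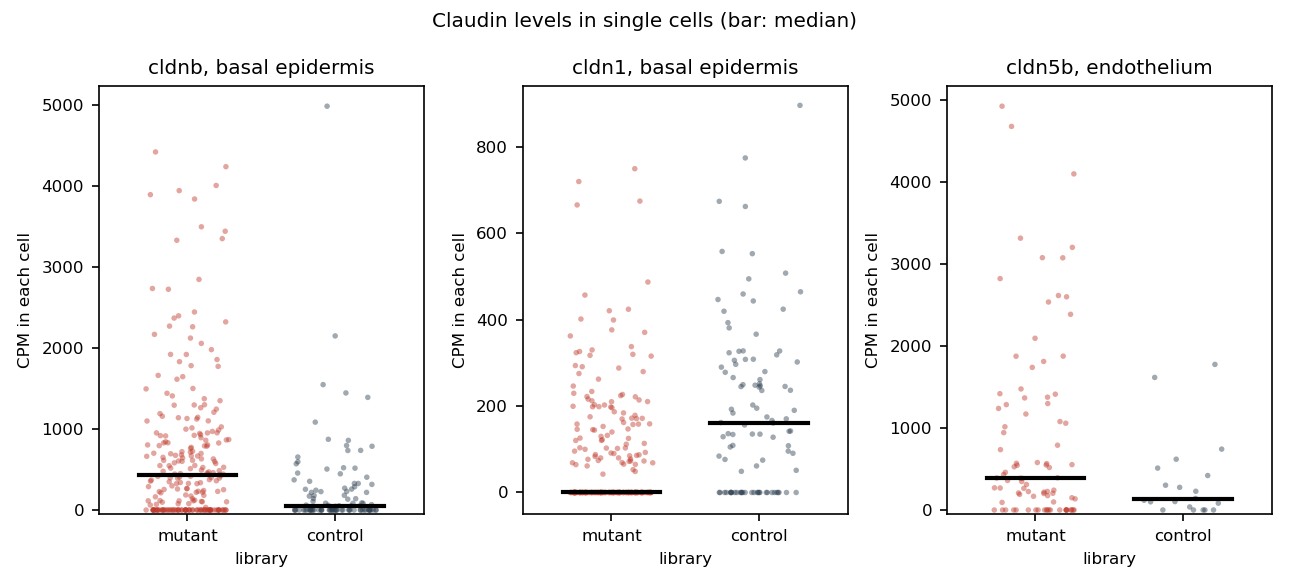
Level (CPM) in each single cell of cldnb and cldn1 in basal epidermis and of cldn5b in endothelium, with mutant cells on the left and control cells on the right of each panel; the bar is the median and sideways spread is only for display. Medians are 431 CPM in mutant and 51.3 CPM in control cells for cldnb, 0 CPM in mutant and 161 CPM in control cells for cldn1, and 389 CPM in mutant and 130 CPM in control cells for cldn5b.

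In periderm the 1 member past the rule was cldni, which was scarce there. Its level was 49.7 CPM (41.8 to 58.7) in mutant and 112 CPM (97.5 to 128) in control periderm, a ratio of 0.445 (0.357 to 0.553). Of the control UMIs 46.1% lay in 1 cell, the ratio without the highest cell of each library was 0.703 (0.541 to 0.914), and the call was lost without the cells with the highest doublet scores. The periderm claudins themselves had ratios of 1.2 (1.16 to 1.25) for cldne, 1.26 (1.22 to 1.31) for cldnb, 1.33 (1.21 to 1.45) for cldn7b and 1.0 (0.924 to 1.09) for cldn23a. The median log2 ratio in periderm was 0.27 over the 11 members and -0.04 over all genes, and in basal cells it was 0.38 over the 5 members and -0.03 over all genes.

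In mesenchyme cldn11a was higher in the mutant, at 123 CPM (113 to 135) against 55.5 CPM (45.2 to 67.5) in the control, a ratio of 2.22 (1.79 to 2.78). The ratio was 2.05 (1.57 to 2.7) for cldn5a and 2.13 (1.25 to 3.83) for cldn17. The 3 members that were lower there were epidermal ones. The ratio was 0.252 (0.207 to 0.307) for cldni, 0.293 (0.205 to 0.415) for cldnb and 0.149 (0.0794 to 0.267) for cldne. For cldnb 80.2% and for cldne 95.9% of the control mesenchyme UMIs lay in 1 cell. Without the highest cell of each library the ratio was 1.09 (0.608 to 2.05) for cldnb and 2.26 (0.482 to 21.3) for cldne, so both calls rested on that cell, and both were also lost without the cells of high doublet score. For cldni the ratio without the highest cell was 0.209 (0.157 to 0.278). Periderm markers in mesenchyme stood at 965 CPM in the mutant and 3898 CPM in the control, with 13 of 14 detected in the mutant and 14 of 14 in the control. The keratin krt4 alone had a ratio of 0.205 (0.191 to 0.219) there. Basal markers in mesenchyme stood at 215 CPM in the mutant and 509 CPM in the control. One of them, krtt1c19e, which was also abundant in periderm, had 216 of 3973180 mutant UMIs and 416 of 1818990 control UMIs there. The part of such epidermal transcripts in the cldni difference was not tested.

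In neurons cldnh was higher, with 305 UMIs in 12 of 413 mutant cells and 69 UMIs in 12 of 227 control cells, a ratio of 4.4 (3.38 to 5.80). Of the mutant UMIs 48.2% lay in 1 cell, and the ratio was 3.04 (2.2 to 4.25) without the highest cell of each library. The lower member in neurons was cldn12, with 19 mutant and 40 control UMIs and a ratio of 0.473 (0.259 to 0.836), and this call was lost with TMM scaling and with mutant cells drawn to the control number. None of the 8 members of neural progenitors met the rule, and cldn5a had a ratio of 1.47 (1.32 to 1.65) there.

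The endothelium had under 50 control cells and was not part of the count. Its cldn5b ratio was 3.39 (2.75 to 4.21). Single mutant cells had a median of 389 CPM and a highest value of 4924 CPM, and single control cells a median of 130 CPM and a highest value of 1776 CPM, so the control cells lay within the range of the mutant cells. The thinned share of cells with a cldn5b UMI was 36.4% (26.4 to 47.3) in the mutant and 20% (5.73 to 43.7) in the control. Of the periderm marker UMIs of control endothelium 54.2% lay in 1 cell, and without the cell highest in those markers in each library the cldn5b ratio was 3.30 (2.67 to 4.11). Summed over the class, endothelial markers stood at 9670 CPM in the mutant and 7210 CPM in the control, while their median over single cells was 10148 CPM in the mutant and 10573 CPM in the control.

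Other components of epithelial junctions were examined from chosen lists. Tight junction scaffold genes link claudins to the cytoskeleton. Of these, 15 could be tested over all cells, 13 in periderm and 11 in basal cells, and none met the size rule. Of all genes, 10.1% met it over all cells, 7.36% in periderm and 5.59% in basal cells, and the same shares stand beside the size rule counts of the lists below. The scaffold genes with most UMIs, magi1b, tjp1a, tjp3 and tjp1b, had ratios of 0.871, 1.04, 0.904 and 0.680 over all cells. Of 17 other tight junction membrane genes tested over all cells, 0 were higher and 1, jam3a, was lower (5.81 CPM in the mutant and 12.7 CPM in the control). In periderm 1 of 10, ildr1b, was lower (8.23 CPM in the mutant and 18.9 CPM in the control). In periderm f11r.1, a junctional adhesion molecule, had a ratio of 1.17 (1.07 to 1.28) and oclna, which encodes occludin, 0.975 (0.870 to 1.09).

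None of 13 epithelial adhesion genes met the rule over all cells, and cdh1, the E-cadherin gene, had a ratio of 0.861 in periderm and 1.19 in basal cells. Of 11 genes tested from the epithelial transcription factor list, klf17 was higher over all cells, at 4.43 CPM in the mutant and 1.35 CPM in the control. It was not among the 8 genes of that list restricted to an epidermal class, and its leading class was not examined. In periderm elf3, itself a marker of the gate, was higher, at 212 CPM in the mutant and 51.1 CPM in the control, a ratio of 4.15 (3.35 to 5.18). Of the membrane genes 15 of 17 were class-restricted, 7 to periderm and 1 to basal cells, and of the transcription factor genes 8 of 10 were, 6 to periderm and 2 to basal cells. Among these, esama (endothelium) and tp63 (basal cells) were themselves markers of the gates of those classes, so their restriction was built into the classes. Of the scaffold genes 8 of 15 and of the adhesion genes 7 of 13 were class-restricted, while over all genes the shares were 38.8% for any class and 7.81% for the epidermis.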

How the data were processed

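GFP-sorted cells of 36 hpf embryos gave 1 mgat4b mutant and 1 control library. The authors deposited whole UMI counts per gene and barcode, made with Cell Ranger (7.2.0 in the file header, another version in the study's methods) against GRCz11. Cells with over 200 genes and under 5% mitochondrial UMIs were kept. The members and gene lists were chosen with earlier results of these data known, and the scoring of the marker gate, including its minimum of 1000 UMIs, was set after the data were seen. A marker counted as raised at 3 times its library share or more. These shares differed between the libraries, with krt4 at 10139 CPM in mutant and 16811 CPM in control cells. Claudins with at least 200 UMIs were named with levels and ratios, and the others by UMIs and leading class. From each list at most the 4 genes with most UMIs, and any gene past the size rule, were named. A gene alike to cldn7b is not reported here. CPM carry exact Poisson intervals, ratios exact conditional binomial intervals and shares Clopper-Pearson intervals, all at 95% and covering counting error only, since reads of 1 library are not replicates. Doublets were kept. Scrublet scores (scanpy 1.11.5) at 0.8% per 1000 cells marked 119 mutant and 25 control cells, which were left out as an alternative. Analyses ran in Python 3.11.15 with scipy 1.17.1, and edgeR gave the TMM factors. The rules were checked on simulated counts. No sequence is shown.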

Additional observations from a re-analysis of the deposited data

Results flagged for a closer look

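The gene cldnb moved in opposite directions in different cell classes. Its ratio of mutant over control was 2.71 in basal epidermis and 0.293 in mesenchyme. The difference between the classes was not tested, since each group had 1 library. In control mesenchyme 80.2% of the cldnb UMIs lay in 1 cell, and without the highest cell of each library the mesenchyme ratio was 1.09 (0.608 to 2.05), while the basal ratio was 3.19 (2.80 to 3.63).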

How the results depend on the processing

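The count of 5 members past the size rule over all cells was between 4 and 7 under 8 alternatives: no cell filter, only cells of at least 1000 UMIs, no high doublet scores, mutant cells drawn to the control number (4), TMM scaling, totals without mitochondrial and ribosomal protein genes, at least 20 UMIs, and a ratio of at least 1.5 (7, with 25.7% of all genes called). Within classes the count of 11 became 17 at a minimum of 20 UMIs and 19 at a ratio of 1.5, and was between 10 and 13 under the other alternatives, including a stricter gate of 4 markers. For these within-class alternatives the share of all genes was not computed. The 13 class-restricted members became 17 at a fold of 3, where the share over all genes also rose, from 38.8% to 51.9%. The summed claudin ratio over all cells had no stable direction, since 0.960 became 0.977 without high doublet scores, 0.943 with drawn cells, 0.9996 without mitochondrial and ribosomal protein genes, 0.898 as a mean of per-cell CPM and 1.06 with TMM scaling, which reverses it. In periderm the ratio of 1.2 became 1.15 with drawn cells, 1.27 with TMM scaling and 1.28 as a mean of per-cell CPM, and in basal cells 1.35 became 1.41 both with TMM scaling and as a mean of per-cell CPM. Among single ratios whose interval excluded 1, those that changed direction were cldne with TMM scaling (1.05) and, as means of per-cell CPM, cldne (1.33), cldn23a (1.27) and cldn12 (1.14). Of 136 such values for the 17 named claudins, 104 stayed within their main interval, 28 left it and the 4 above changed direction. As means of per-cell CPM, which weight shallow cells more, the all-cells ratio also moved by over 1.5 times for cldn1 (0.150), cldnh (0.544), cldnc (0.678) and cldn19 (1.69). Of the ratios whose interval included 1, cldnc and cldn19 crossed 1 there, cldnc also with no cell filter (0.826). For cldnh the ratio lay between 1.03 and 1.21 under 4 alternatives, the highest with drawn cells (1.08 to 1.36). With no cell filter it was 0.737 (0.676 to 0.802), so the direction of cldnh depended on the processing. One alternative, leaving out the cell richest in a gene, was chosen after seeing the data.

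Thinned to 3000 UMIs in place of 1000, the shares of cells with a UMI were 99.1% in mutant and 98.9% in control periderm for cldne. In basal cells they were 58.4% in the mutant and 35.2% in the control for cldnb, and 99.5% in the mutant and 100% in the control for cldni. No paired analysis was possible because each group had 1 library. Depth limits the 12 members under 200 UMIs and the classes under 10 cells, whose values rest on few transcripts.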
